A study of Mus musculus with 12 samples.

Results

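This is the effect of a TGF-β1 vector in 1 of the study's experiments, experiment 3: 3 mRNA sequencing libraries of CD11b dendritic cells (DCs) from mice given AdTGFb1 were compared with 3 from mice given AdCL. The 6 libraries are all those labelled with experiment 3, of 12 in the series, and all 24391 genes of the count table were taken. The mice were wild-type C57BL/6J, used at 8 to 12 weeks. AdCL is a replication-deficient adenovirus with no inserted gene and served as the control; AdTGFb1 is the same kind of vector carrying porcine TGF-β1 in its active form. Both were given into the trachea, so AdCL mice received a virus too, and the series title describes established pulmonary fibrosis. No label states the organ, the sorting gate or the time after the vector, or ties a library to its own animal. So the p-values measure only the spread between libraries, which may be technical. That spread was estimated over all 12 libraries, those of experiment 1 included. In each sentence below, values per library are ordered by the labels' DC numbers, 943, 944 and 949 for AdCL, then 954, 955 and 956 for AdTGFb1.

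TGF-β is a secreted cytokine, held latent in the matrix or on cell surfaces until activated, that signals through the receptor kinases TGFBR1 and TGFBR2 and the SMAD transcription factors. In the lung it drives matrix deposition by fibroblasts, and intratracheal delivery of the active form is a standard way to make fibrosis in rodents. Dendritic cells that carry CD11b take up antigen in tissue, mature under NF-kB signals, express CCR7 and migrate to lymph nodes. Macrophages and cells derived from monocytes also carry CD11b, and are told apart by genes such as those for the CSF1 receptor, Fc receptors, MerTK and complement C1q.

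The libraries held 10099912 to 15132731 counts with AdCL and 12290834 to 15594546 with AdTGFb1, and 13221 genes passed the filter on low counts. A limit of 3 counts corresponds to 0.181 to 0.289 counts per 1000000 counts of the library (CPM). The log2 levels correlated across genes at 0.9115 to 0.9343 within a vector group and at 0.8936 to 0.9244 between them. The first principal component took 29.7% of the variance and separated the groups, with AdCL libraries at -58.52 to -33.09 and AdTGFb1 libraries at 37.57 to 63.82. All 6 libraries had the female pattern, with Xist at 1396 to 2178 CPM and Ddx3y at 0. Counts on Rn45s, a ribosomal RNA precursor that poly(A) selection should remove, were 3.921%, 4.767% and 4.642% of the total with AdCL and 5.915%, 6.251% and 7.157% with AdTGFb1, with no overlap. The genes that define the labelled cells were present in every library. Itgam, which encodes CD11b, was at 399, 561 and 463 CPM with AdCL and 295, 363 and 427 CPM with AdTGFb1, and the difference did not pass the test (log2 fold change -0.39 ± 0.18, adjusted p = 0.23). Itgax, which encodes CD11c, was at 1132, 964 and 955 against 914, 1057 and 889 CPM, also not called (adjusted p = 0.782). The MHC class II gene H2-Ab1 was at 6749, 9743 and 8567 against 6512, 7776 and 5866 CPM (adjusted p = 0.224).

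With AdTGFb1, 261 genes were called higher and 589 lower, which is 1.97% and 4.46% of the 13221 genes tested and 6.43% together. A call is an adjusted p under 0.05 in edgeR's quasi-likelihood test with Benjamini-Hochberg adjustment over all tested genes. Unless another fit is named, every adjusted p below comes from that test, with 3 libraries a group. The value after ± is an approximate standard error (SE). It is the absolute log2 fold change divided by the square root of the test's F statistic. At an unadjusted p under 0.05 there were 2428 genes. Differences were mostly moderate: 112 higher and 246 lower genes changed at least 2-fold, and 17 and 54 at least 4-fold. The 3 libraries of one vector lay beyond the 3 of the other in 258 of the higher genes and 571 of the lower ones; over all tested genes that held for 11.5% upward and 12.9% downward. The median log2 fold change of all tested genes was 0.0028. The fit of the 6 libraries of experiment 3 alone called 283 genes higher and 465 lower, and 662 of its calls were shared with the fit of all 12. The calls rest unevenly on the libraries. Without AdCL 944 the counts were 171 higher and 350 lower, without AdTGFb1 956 they were 149 and 349, and without AdTGFb1 954 the higher count was 170. Of the 43 gene lists used, the interferon-γ response and monocyte and macrophage identity had the largest shares of members called higher, and ribosomal proteins and migratory DC maturation the largest shares called lower.

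**Figure D1:**
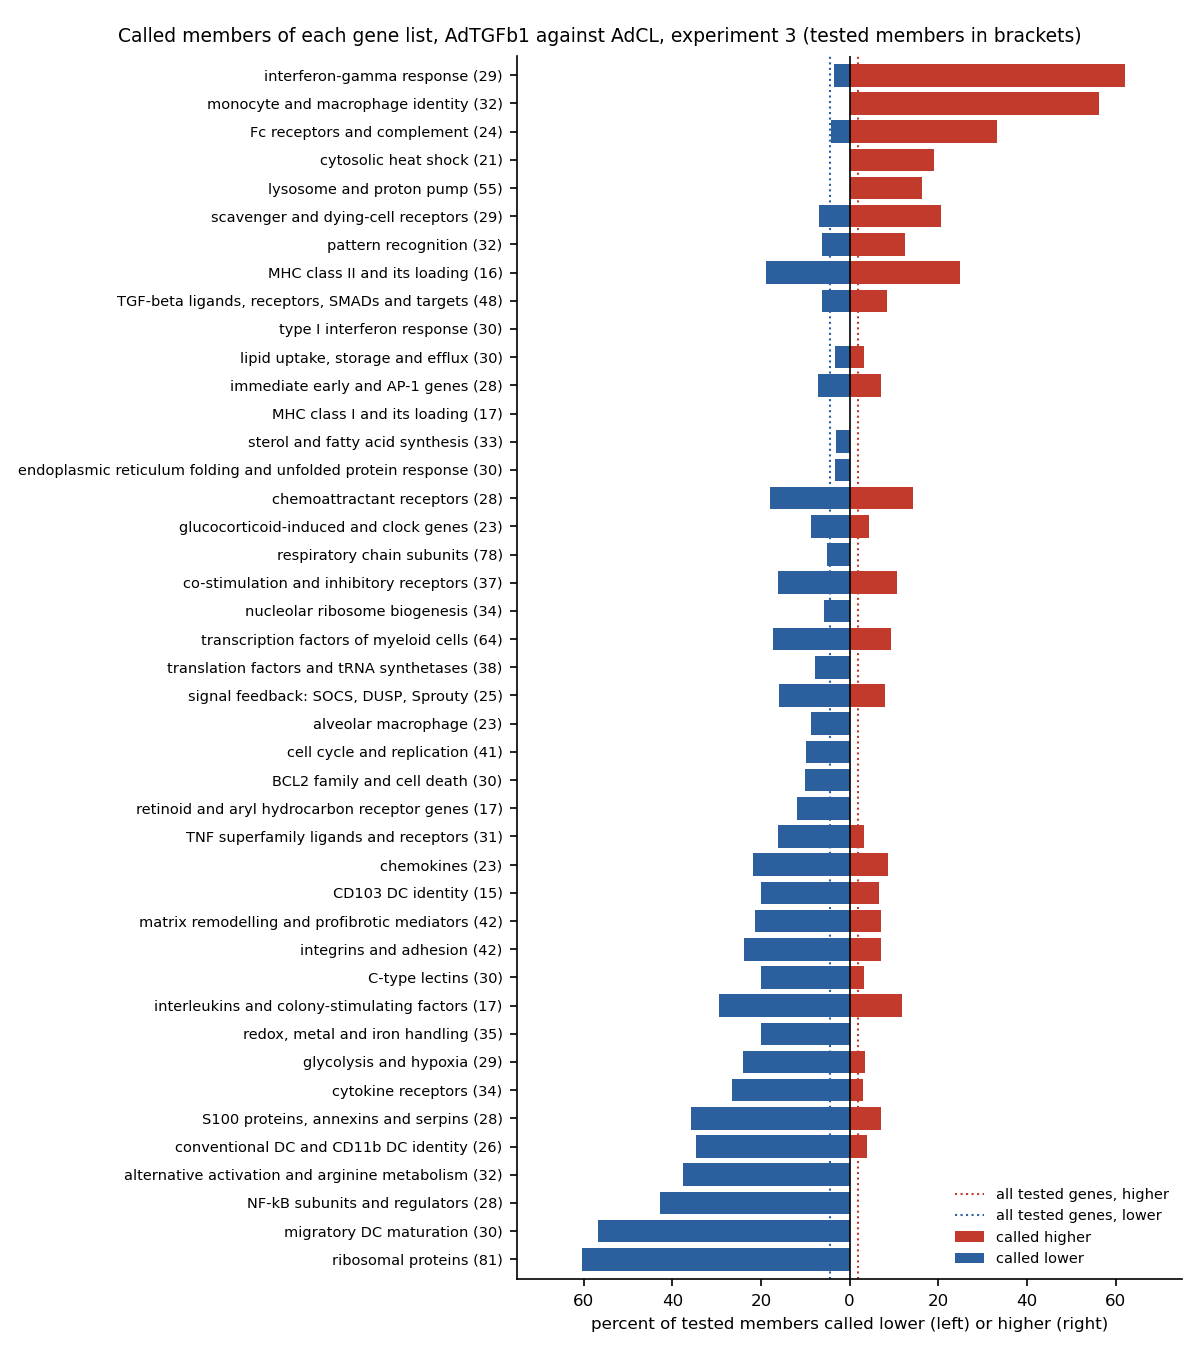
Percent of the tested members of each of 43 gene lists that were called lower (blue, to the left) or higher (red, to the right) with AdTGFb1 against AdCL in experiment 3; dotted lines mark the shares over all 13221 tested genes, 4.46% lower and 1.97% higher. The longest red bars are the interferon-γ response (62.1%) and monocyte and macrophage identity (56.2%), the longest blue ones ribosomal proteins (60.5%) and migratory DC maturation (56.7%).

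Genes of monocytes and macrophages were higher with AdTGFb1. Of 32 tested members, 18 were called higher and 0 lower (0 at an unadjusted p under 0.05, 0 with DESeq2 and 0 with limma-voom), with a median log2 fold change of 0.70. Over the 15 alternative fits, which include leaving out each library, the count of higher members ran from 15 to 19. Apoe, a carrier of cholesterol that macrophages secrete, was at 3017, 2799 and 3885 CPM in the AdCL libraries and 7977, 11002 and 10474 CPM in the AdTGFb1 libraries. Every AdTGFb1 library lay above every AdCL library, and the fold was 3.04 (log2 1.60 ± 0.19, adjusted p = 2.25e-05). Cx3cr1, the fractalkine receptor of monocyte-derived cells, was at 125, 170.2 and 215 against 417, 475 and 481 CPM (log2 1.43 ± 0.20, adjusted p = 1.01e-04). Fcgr1, which encodes the high-affinity IgG receptor CD64, was at 36.0, 41.8 and 65.0 against 144, 126 and 114 CPM (log2 1.43 ± 0.22, adjusted p = 2.79e-04). In both genes the lowest AdTGFb1 library was above the highest AdCL library.

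The receptor for the macrophage growth factor CSF1, Csf1r, was at 881, 798 and 914 against 1251, 1462 and 1384 CPM (log2 0.66 ± 0.12, adjusted p = 0.00126). Mertk, a receptor for dying cells, was at 63.6, 55.5 and 56.4 against 96.3, 106 and 129.9 CPM (log2 0.92 ± 0.19, adjusted p = 0.00309). Cebpa, a transcription factor of the myeloid lineage, was at 59.7, 64.7 and 90.6 against 152, 168 and 176 CPM (log2 1.20 ± 0.16, adjusted p = 5.92e-05). Ccr2, by which monocytes leave the blood for tissue, was higher by less, at 247, 202 and 222 against 286, 347 and 338 CPM (log2 0.54 ± 0.15, adjusted p = 0.0376). Its call was lost without AdCL 944 (adjusted p = 0.139) or 949 (0.101) and without AdTGFb1 955 (0.108) or 956 (0.13). It was also lost with a term for other cells (0.0969), a covariate made from each library's mean level of markers of endothelial, epithelial, mesenchymal, B, T and NK cells, platelets and neutrophils.

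Fc receptors and complement gave 8 of 24 tested members higher and 1 lower, with a median of 0.60. The C1q chains, which start the classical complement pathway, were among them. C1qa was at 441, 485 and 584 against 919, 977 and 851 CPM (log2 0.86 ± 0.16, adjusted p = 0.00116) and C1qc at 468, 430.2 and 650.3 against 1076, 1105 and 962 CPM (log2 1.02 ± 0.18, adjusted p = 0.00112). C4b, of the same pathway, was at 5.87, 4.07 and 8.24 against 35.2, 34.7 and 34.0 CPM (log2 2.51 ± 0.65, adjusted p = 0.0199); it has a near-identical copy, so its reads are uncertain, and the call was lost with DESeq2 (adjusted p = 0.0819), without AdCL 944 (0.0786) and without AdTGFb1 956 (0.0546). The called exception was Cfp, the properdin gene, described with the differences from experiment 1.

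Further genes with small adjusted p-values in this direction act in phagocytes or in adhesion. Lair1, an inhibitory receptor for collagen, was at 79.4, 87.7 and 94.0 against 243, 228 and 239 CPM (log2 1.44 ± 0.20, adjusted p = 7.31e-05). Itga6, a laminin-binding integrin chain, was at 22.02, 37.7 and 39.1 against 87.9, 107 and 135 CPM (log2 1.74 ± 0.25, adjusted p = 1.01e-04), and Itgb5, whose integrin binds vitronectin and can activate latent TGF-β, at 205, 181 and 175 against 395, 445 and 397 CPM (log2 1.14 ± 0.19, adjusted p = 4.44e-04). In all 3 genes the groups were apart by more than their spread. Mpeg1, which encodes the pore-forming perforin-2 of phagocytes, was at 976, 1014 and 983 against 1675, 1720.4 and 1602 CPM, a small spread in both groups (log2 0.75 ± 0.12, adjusted p = 4.44e-04). Zfp36l2, an mRNA-destabilizing zinc finger protein, rose 2.25-fold (adjusted p = 1.12e-04) and Tifab, a regulator of TRAF6 signalling, rose 2.62-fold (adjusted p = 2.48e-04).

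Of 55 tested lysosomal and proton pump genes 9 were higher and 0 lower (1 at an unadjusted p under 0.05, 0 with DESeq2 and 0 with limma-voom), with a median of 0.21. The changes were small: Ctsc, the protease cathepsin C, was at 368, 258 and 359 against 557, 548 and 440.1 CPM (log2 0.65 ± 0.15, adjusted p = 0.00823), and Gusb, β-glucuronidase, at 104, 99.2 and 102 against 171, 148 and 156 CPM (log2 0.64 ± 0.15, adjusted p = 0.00823). Only 2 members were called higher without AdCL 944, 3 without AdTGFb1 954, 4 without AdCL 949, and 5 with the 6 libraries fitted alone or with the term for other cells; DESeq2 called 14.

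The interferon-γ response was higher. Of 29 tested members 18 were called higher and 1 lower, with a median of 1.18, and in 22 every AdTGFb1 library lay above every AdCL library. The latter held for 11.5% of all tested genes. Interferon-γ acts through JAK kinases and induces guanylate-binding proteins (Gbp genes) and GTPases that attack intracellular microbes, the chemokine CXCL9 that draws T cells, and the regulators of antigen presentation. Many of these genes carry an interferon-stimulated response element (ISRE) close to their start. The core of that element, written GAAANNGAA and searched on both strands, was found in 13 of the 20 list members matched to a RefSeq promoter (250 bases before to 50 after the start), against 7.34% of the 10428 tested genes so matched; it was also found in 13 of 21 matched members of the type I interferon list. The stretches around it are shown for 5 genes that were higher, 5′ to 3′ in the gene's direction, with the matches in capitals.
Cxcl9: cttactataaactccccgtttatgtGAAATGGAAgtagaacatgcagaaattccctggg
Gbp2: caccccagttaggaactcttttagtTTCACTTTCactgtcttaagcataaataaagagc
Gbp3: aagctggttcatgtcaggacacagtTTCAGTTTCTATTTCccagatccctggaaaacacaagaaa
Gbp7: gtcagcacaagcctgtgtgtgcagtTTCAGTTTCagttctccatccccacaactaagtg
Irgm1: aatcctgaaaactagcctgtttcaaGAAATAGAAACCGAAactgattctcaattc
The stretches are from RefSeq, build GRCm38.p6, at chr5:92328221-92328279 (- strand), chr3:142620580-142620638 (+ strand), chr3:142559975-142560039 (+ strand), chr3:142530259-142530317 (+ strand) and chr11:48871421-48871475 (- strand). The Gbp2, Gbp3 and Gbp7 stretches hold the element on the opposite strand and Gbp3 and Irgm1 hold 2 overlapping matches. A match is a description of the letters only. Among the genes called higher as a whole, 11.3% of 204 matched promoters held the core, and among those called lower 10.2% of 461.

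Cxcl9 was at 86.9, 39.3 and 107 CPM with AdCL and 457, 259 and 253 CPM with AdTGFb1 (log2 2.05 ± 0.43, adjusted p = 0.00459). Gbp2 was at 136, 37.2 and 148 against 520.1, 241 and 210.5 CPM (log2 1.60 ± 0.39, adjusted p = 0.0143), and Gbp3 at 87.5, 86.1 and 107 against 240.4, 212 and 171 CPM (log2 1.15 ± 0.20, adjusted p = 9.55e-04). AdTGFb1 954 was the highest library in each of these and AdCL 944 the lowest. Gbp7 was at 62.1, 34.8 and 58.9 against 176, 126 and 128 CPM (adjusted p = 0.00304) and Irgm1 at 37.2, 21.8 and 30.4 against 118, 40.3 and 42.5 CPM (adjusted p = 0.0368). In Irgm1 the libraries AdTGFb1 955 and 956 were only just above the AdCL libraries, and its call was lost in 6 alternatives, with an adjusted p of 0.47 without AdTGFb1 954; that of Gbp2 was 0.115 without it. Gbp2, Gbp7 and Irgm1 were chosen for the element in their promoter, after their values were seen. Gbp genes are a family of close copies, so reads may be shared between its members.

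Several of the largest rises of the whole comparison were in this list. Iigp1, an interferon-inducible GTPase, was at 12.6, 5.13 and 11.2 against 90.6, 41.0 and 44.996 CPM, 6.11-fold higher (log2 2.61 ± 0.52, adjusted p = 0.00303). Serpina3f, a protease inhibitor with close copies beside it, was at 1.06, 0.163 and 2.88 against 34.3, 10.2 and 13.6 CPM (log2 3.79 ± 0.90, adjusted p = 0.0107); without AdTGFb1 954 the adjusted p was 0.0786. Gbp2b was at 5.96, 3.18 and 18.8 against 85.1, 22.7 and 30.6 CPM (adjusted p = 0.0198), with an adjusted p of 0.214 without AdTGFb1 954, 0.0839 without AdCL 944 and 0.0666 without AdCL 943. Ifi47 was at 5.29, 3.501 and 4.15 against 36.0, 7.67 and 15.9 CPM (adjusted p = 0.0153), and its call was lost without AdTGFb1 954 (0.213), AdCL 944 (0.0668) or AdCL 949 (0.0564) and with limma-voom (0.0588). With the term for other cells the calls of Gbp2b (0.132) and Ifi47 (0.12) were lost too. Over the list, 8 members were called higher without AdTGFb1 954, 12 without AdCL 944, 12 with the term for other cells, and 16 to 18 without each of the other libraries.

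Irf8, a transcription factor of monocytes and of CD103 DCs, was at 149, 120.3 and 143 against 348, 303.7 and 282 CPM (log2 1.18 ± 0.16, adjusted p = 7.65e-05). Ciita, the master regulator of MHC class II genes, was at 385, 300.98 and 334 against 548, 516 and 527 CPM (log2 0.64 ± 0.15, adjusted p = 0.00883). Both kept their call under all 15 alternatives. The member called lower was Jak2, the kinase of the interferon-γ and GM-CSF receptors, at 957, 1049.6 and 918 against 407, 492 and 369 CPM (log2 -1.21 ± 0.14, adjusted p = 1.19e-05). Of 30 tested members of the type I interferon list, edgeR called 0 higher (10 at an unadjusted p under 0.05, 2 with DESeq2 and 2 with limma-voom) and 0 lower (1 at an unadjusted p under 0.05, 1 with DESeq2 and 1 with limma-voom), with a median of 0.50. In every library 9 members were above and 2 below, against 11.5% and 12.9% of all tested genes. Leaving out AdCL 949 gave 3 higher members, the 6 libraries alone 3, and no filter on low counts 6 higher and 1 lower.

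**Figure D2:**
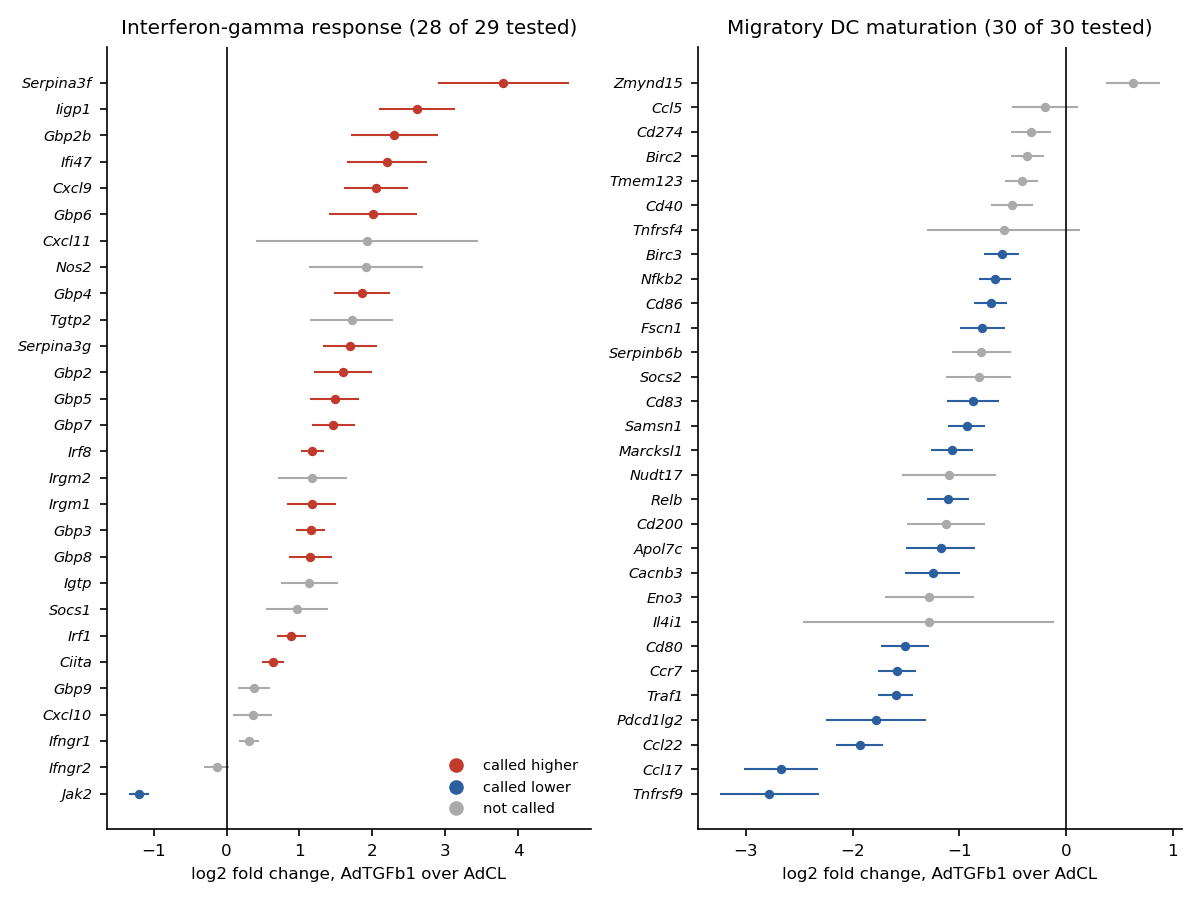
Log2 fold change of AdTGFb1 over AdCL in experiment 3, with bars of 1 approximate standard error. Drawn are 28 of the 29 tested members of the interferon-γ response list (left) and all 30 of the migratory DC maturation list (right). Red and blue points were called higher and lower, grey points were not called. On the left 17 points are red and Jak2 alone is blue, and on the right 17 are blue and none red.

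The genes of migratory, mature DCs were lower with AdTGFb1. Of 30 tested members 17 were called lower and 0 higher (1 at an unadjusted p under 0.05, 0 with DESeq2 and 0 with limma-voom), with a median of -0.999, and in 21 members every AdTGFb1 library lay below every AdCL library. The latter held for 12.9% of all tested genes. Without AdCL 944 the count called lower was 11. Ccr7, the receptor that guides DCs to lymph nodes, was at 1033, 1510.3 and 908 CPM with AdCL and 376, 477 and 300.5 CPM with AdTGFb1 (log2 -1.58 ± 0.18, adjusted p = 1.19e-05). The chemokine genes Ccl22 and Ccl17, both ligands of CCR4 on T cells, were lower as well. Ccl22 was at 901, 1717 and 1059 against 254, 458 and 251 CPM (log2 -1.93 ± 0.22, adjusted p = 1.19e-05). Ccl17 was at 667, 1158 and 762 against 52.1, 237 and 117 CPM, 6.38-fold lower (log2 -2.67 ± 0.35, adjusted p = 5.00e-05). AdCL 944 was the highest library in all 3 genes and AdTGFb1 955 the highest of its own group, and no library crossed.

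Of 37 tested co-stimulatory and inhibitory receptors and ligands 4 were higher and 6 lower, with a median of -0.01; only 2 were higher without AdCL 944, AdCL 949, AdTGFb1 954 or AdTGFb1 956. Among the lower ones, Cd80 was at 182, 176 and 105 against 53.6, 51.7 and 57.3 CPM (log2 -1.51 ± 0.23, adjusted p = 2.03e-04) and Cd86 at 465, 609.9 and 406 against 278, 353 and 277 CPM (log2 -0.71 ± 0.16, adjusted p = 0.00656); both encode the ligands of CD28 on T cells. Without AdCL 944 the adjusted p of Cd86 was 0.063. Tnfrsf9, which encodes the co-stimulatory receptor 4-1BB, was at 21.6, 19.8 and 15.7 against 1.95, 5.35 and 1.09 CPM, 6.87-fold lower (adjusted p = 5.21e-04). Traf1, an adaptor of TNF receptors, had one of the smallest adjusted p-values, at 521, 696 and 629 against 170.1, 261 and 179.6 CPM (log2 -1.60 ± 0.17, adjusted p = 8.53e-06).

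**Figure D3:**
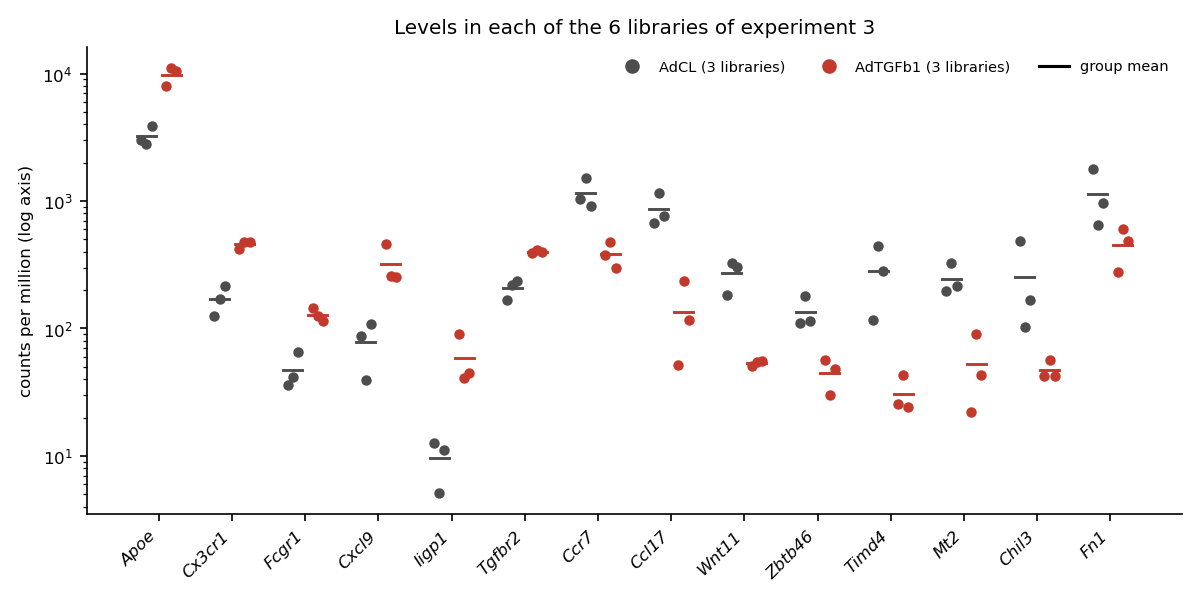
Levels in CPM (log axis) of 14 genes in each of the 6 libraries of experiment 3, with AdCL in grey, AdTGFb1 in red and lines at the group means. The groups do not overlap in any of the 14 genes; Apoe, Cx3cr1, Fcgr1, Cxcl9, Iigp1 and Tgfbr2 were higher with AdTGFb1 and the other 8 lower, with Chil3, Timd4 and Fn1 the most spread among the AdCL libraries.

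The identity genes of conventional DCs and CD11b DCs gave 9 of 26 tested members lower and 1 higher, with a median of -0.45. Zbtb46, a transcription factor that marks conventional DCs, was at 109.6, 179 and 115 against 56.3, 29.9 and 48.1 CPM (log2 -1.58 ± 0.23, adjusted p = 1.36e-04). Flt3, the receptor for the growth factor of DC precursors, was at 74.4, 72.4 and 64.1 against 40.5, 27.4 and 31.2 CPM (log2 -1.09 ± 0.20, adjusted p = 0.00148). Irf4, a factor that CD11b DCs need, was at 187, 361 and 313 against 82.8, 142 and 101 CPM (log2 -1.40 ± 0.21, adjusted p = 2.03e-04). These 3 were lower in every AdTGFb1 library than in any AdCL library and kept their call under all 15 alternatives. Cd24a was 3.14-fold lower (adjusted p = 2.71e-04) and the lectin gene Cd209a, which has close copies, 3.61-fold lower (adjusted p = 0.0012). The member called higher was Sirpa, at 691, 591 and 613 against 937, 782 and 885 CPM (log2 0.46 ± 0.13, adjusted p = 0.0357). It encodes the inhibitory receptor SIRPα of myeloid cells and was named here after its value was seen. Its call was lost in the fit of the 6 libraries alone (0.0757), with the term for other cells (0.17), and without AdCL 944 (0.122), AdCL 949 (0.124), AdTGFb1 954 (0.159) or AdTGFb1 956 (0.114).

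Genes of CD103 DCs did not move in 1 direction: Irf8 was called higher and 3 of 15 tested members lower, with a median of 0.54. Wdfy4, which cross-presentation in these cells needs, was at 911, 1192 and 960.3 against 478, 543 and 545 CPM (log2 -0.97 ± 0.15, adjusted p = 3.29e-04). Plet1 was at 105, 67.7 and 89.2 against 14.9, 43.4 and 12.99 CPM (log2 -1.88 ± 0.36, adjusted p = 0.00185), and Cd207, which encodes langerin, at 96.2, 282 and 225 against 23.8, 105 and 46.0 CPM (log2 -1.79 ± 0.37, adjusted p = 0.00353), where the highest AdTGFb1 library exceeded the lowest AdCL library. The median of this list was 0.05 among genes of at least 5 CPM and 0.04 with the term for other cells.

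Markers of cells derived from monocytes, summed over 10 genes, were at 2969, 3367 and 3255 CPM with AdCL and 4199, 5014 and 4607 with AdTGFb1, without overlap, and 7 of the 10 were called higher. Markers shared by DCs, summed over 12 genes, were at 39539, 52415 and 44206 against 36695, 42177 and 33441 CPM, which overlap, with 5 called lower and 1 higher. Cd74 made up 43.4% of that sum on average. The median log2 fold change of the 12 genes was -0.395. Of these, 6 were below and 1 above in every library, against 12.9% and 11.5% of all tested genes. In bulk libraries a smaller share of a cell type and less RNA of its genes per cell cannot be told apart. That holds for the macrophage and DC genes above and for each list below.

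Components and targets of NF-kB, the pathway through which DCs mature, gave 12 of 28 tested members lower and 0 higher (0 at an unadjusted p under 0.05, 0 with DESeq2 and 0 with limma-voom), with a median of -0.48; without AdCL 944 the lower count was 7. Rel, which encodes the subunit c-Rel, was at 897, 1239 and 883 against 492, 538 and 487 CPM (log2 -0.99 ± 0.15, adjusted p = 1.37e-04). Map3k14, the kinase NIK of the alternative pathway, was at 489, 786 and 607 against 192, 329 and 227 CPM (log2 -1.33 ± 0.18, adjusted p = 7.83e-05). Tnip3, an inhibitor that NF-kB induces, was at 473, 932 and 558 against 135, 257 and 183 CPM (log2 -1.77 ± 0.23, adjusted p = 5.00e-05). No library crossed between groups in these 3 genes. A match to the kappaB element was found in 9 of 23 matched promoters of this list, against 10.1% of all matched genes, and in 2 of 22 of the migratory DC list.

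Il6, the gene of an inflammatory cytokine, was at 20.9, 36.6 and 20.8 against 6.56, 5.51 and 7.25 CPM (log2 -2.02 ± 0.38, adjusted p = 0.00188), and Il12b, a subunit of the T cell-polarizing cytokines IL-12 and IL-23, at 275, 396 and 256 against 169.7, 238 and 88.4 CPM (log2 -0.90 ± 0.25, adjusted p = 0.0307). The Il1b gene of the inflammatory cytokine IL-1β was at 2606, 5126 and 3652 against 798, 3029 and 1156 CPM, with AdTGFb1 955 inside the AdCL range (log2 -1.19 ± 0.33, adjusted p = 0.0299). The calls of both were lost in the fit of the 6 libraries alone (adjusted p = 0.0608 for Il12b and 0.0598 for Il1b), with DESeq2 (0.0839 and 0.149), with the term for other cells (0.0846 and 0.0643), and without AdCL 944 (0.178 and 0.149), AdTGFb1 954 (0.0671 and 0.127) or AdTGFb1 956 (0.163 and 0.162); that of Il1b was also lost without AdCL 949 (0.0501). Of 17 tested interleukins and colony-stimulating factors 5 were lower and 2 higher; the counts were 1 and 1 without AdTGFb1 954, 1 and 2 without AdTGFb1 956, 2 and 1 without AdCL 944 and 3 and 2 without AdCL 949. One of the higher ones was Il16, whose product attracts lymphocytes, at 19.8, 20.8 and 26.5 against 60.4, 59.0 and 73.6 CPM (log2 1.52 ± 0.35, adjusted p = 0.00839). Tnfsf13b, which encodes the B cell survival factor BAFF, was also higher, at 18.6, 22.9 and 24.3 against 58.8, 48.0 and 59.0 CPM (log2 1.33 ± 0.30, adjusted p = 0.00737). Among chemokines 5 of 23 were lower and 2 higher (8 and 1 without AdTGFb1 955), and Cx3cl1, the ligand of Cx3cr1, was among the lower ones at 39.4, 81.1 and 43.2 against 14.8, 15.1 and 9.84 CPM (log2 -2.04 ± 0.30, adjusted p = 1.29e-04).

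Cytokine receptors were lower in 9 of 34 tested members and higher in 1, the Csf1r described above; without AdCL 944 the lower count was 5. Csf2rb, the common chain of the receptors for GM-CSF, IL-3 and IL-5, was at 2006, 2228 and 2088 against 915, 1175 and 902 CPM (log2 -1.08 ± 0.13, adjusted p = 1.78e-05), with a close copy, Csf2rb2, beside it. Il7r was at 343, 339 and 348 against 139, 185 and 163 CPM (log2 -1.08 ± 0.17, adjusted p = 2.79e-04). Downstream of such receptors, Stat5a was at 288, 447 and 292 against 119.7, 121 and 98.0 CPM (log2 -1.60 ± 0.18, adjusted p = 1.19e-05). In these 3 genes the lowest AdCL library was above the highest AdTGFb1 library by more than the range within either group.

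The 2 smallest adjusted p-values of the comparison belonged to lower genes outside these pathways, Wnt11 and Arap2. Wnt11, a secreted ligand of non-canonical Wnt signalling, was at 181, 327 and 304.9 CPM with AdCL and 50.3, 54.9 and 55.8 CPM with AdTGFb1, 5.05-fold lower (log2 -2.34 ± 0.19, adjusted p = 2.25e-07), and the AdTGFb1 libraries lay close together. Arap2, a regulator of small GTPases, was at 239, 311 and 204 against 48.9, 72.5 and 64.6 CPM (log2 -2.02 ± 0.19, adjusted p = 2.20e-06), and Ramp3, a partner of the calcitonin receptor family, at 91.4, 152 and 117 against 23.03, 37.9 and 26.1 CPM (log2 -2.05 ± 0.22, adjusted p = 1.05e-05). Pik3r5, a regulatory subunit of PI3-kinase γ, was at 1378, 1827 and 1472 against 569, 743 and 631 CPM (log2 -1.27 ± 0.14, adjusted p = 1.18e-05). All 4 kept their call under all 15 alternatives. Timd4, a receptor for phosphatidylserine on dying cells, was 9.11-fold lower, at 117, 443 and 282 against 25.6, 43.0 and 24.0 CPM (log2 -3.19 ± 0.38, adjusted p = 2.35e-05), and its AdCL values were themselves widely spread. Among called genes of at least 5 CPM the largest fall by fold was that of Rnase2a, an eosinophil-type ribonuclease with close copies, at 21.0, 5.45 and 4.29 against 0, 0.799 and 1.21 CPM (log2 -3.89 ± 1.04, adjusted p = 0.0246). Its adjusted p was 0.131 with DESeq2, 0.13 with limma-voom, 0.111 without AdCL 943, 0.0795 without AdTGFb1 954 and 0.0505 without AdTGFb1 956.

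Among the genes with the largest rises outside the interferon list, Hes1, a target of Notch signalling, was at 9.14, 10.0 and 4.96 against 39.2, 33.6 and 27.2 CPM (log2 2.06 ± 0.35, adjusted p = 6.35e-04). Ctla2b, which encodes a protein like the propeptide of a cathepsin, was at 1.44, 4.97 and 5.36 against 17.4, 29.0 and 27.0 CPM (log2 2.63 ± 0.53, adjusted p = 0.00325). Ly6a, which encodes the surface antigen Sca-1, was at 0.673, 1.71 and 6.50 against 33.8, 12.7 and 11.3 CPM (log2 2.67 ± 0.64, adjusted p = 0.0117), and its call was lost with limma-voom (adjusted p = 0.0685), without AdCL 944 (0.0547) and without AdTGFb1 954 (0.085). Eln, the elastin gene, was at 3.94, 4.48 and 3.22 against 6.70, 35.1 and 24.4 CPM (log2 2.51 ± 0.49, adjusted p = 0.00245). In Eln the library AdTGFb1 954 was close to the AdCL values, and limma-voom gave an adjusted p of 0.0583. Elastin is made by mesenchymal and endothelial cells; the summed CPM of 21 mesenchymal and mesothelial markers was 331.2, 534.4 and 410.7 with AdCL against 302.2, 422.0 and 308.2 with AdTGFb1. Of these markers 1 was called, the collagen gene Col3a1, at 6.44, 15.9 and 3.55 against 16.8, 27.8 and 31.5 CPM (adjusted p = 0.0305), named here after its value was seen and lost in the fit of the 6 libraries alone and without AdCL 943, AdCL 949, AdTGFb1 955 or AdTGFb1 956. The part of such cells in the rise of Eln was not tested.

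Of 48 tested TGF-β ligands, receptors, SMADs and targets, 4 were higher (8.33%) and 3 lower (6.25%), with a median of 0.23. Over all tested genes these shares were 1.97% and 4.46%, so the lower share was near that of all genes. The counts of higher and lower members were 2 and 2 without AdCL 944, without AdTGFb1 954 and with the term for other cells, 2 and 4 without AdTGFb1 955, 4 and 5 without AdCL 943, and 6 and 6 with DESeq2. Mouse Tgfb1 was at 216, 369 and 282 against 239, 296 and 252 CPM (log2 -0.14 ± 0.17, adjusted p = 0.742) and is no check of the porcine gene in the vector. Tgfbr1 was at 292, 324 and 300.97 against 458, 550.4 and 538 CPM (log2 0.75 ± 0.13, adjusted p = 8.10e-04), and Tgfbr2, the chain that binds the ligand, at 168, 218 and 235 against 391.9, 412 and 397 CPM (log2 0.95 ± 0.16, adjusted p = 7.31e-04). Both receptor chains were thus higher in every AdTGFb1 library, and both calls held under all 15 alternatives. Tgfbr3, a co-receptor, was not called, at 0.192, 5.21 and 5.50 against 0.0698, 0.0799 and 1.45 CPM (adjusted p = 0.139), but was called lower with no filter on low counts and without AdCL 943 or AdTGFb1 956. The inhibitory SMAD gene Smad7, an early target of the pathway, was at 79.6, 77.8 and 87.8 against 105, 130.1 and 107 CPM (log2 0.48 ± 0.18, adjusted p = 0.119).

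Among the members called lower, Lrrc32, which encodes GARP, a protein that holds latent TGF-β at the cell surface, was at 212, 436 and 229 against 51.3, 84.0 and 67.6 CPM (log2 -2.11 ± 0.25, adjusted p = 1.69e-05), and Nrros, its relative in myeloid cells, at 264, 361 and 242 against 124, 185 and 169.8 CPM (log2 -0.86 ± 0.17, adjusted p = 0.00304). Tgfbi, a matrix protein gene named for its induction by TGF-β, was at 1465, 889 and 1404 against 2082, 1868 and 1605 CPM (log2 0.56 ± 0.16, adjusted p = 0.0363). That last call was lost in the fit of the 6 libraries alone (0.0757), with the term for other cells (0.122), and without AdCL 944 (0.179), AdTGFb1 954 (0.165) or AdTGFb1 955 (0.0634). The SMAD box GTCTAGAC was in 0.23% of all matched promoters and in 1 of 34 of this list.

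Of 42 tested matrix and profibrotic genes 9 were lower and 3 higher (11 and 6 with limma-voom), with a median of -0.12. These shares were 21.4% and 7.14%, against 4.46% and 1.97% of all tested genes, where lower calls outnumbered higher ones too. With the term for other cells the median was 0.0782. Fn1, the fibronectin gene, was at 1797, 647 and 965 against 278, 603 and 484 CPM (log2 -1.32 ± 0.32, adjusted p = 0.0132). AdCL 943 was the highest library, and the adjusted p was 0.101 without it, 0.0678 without AdTGFb1 954 and 0.0558 with DESeq2. Timp1, an inhibitor of matrix proteases, was at 11.7, 14.2 and 14.1 against 0.209, 3.43 and 1.51 CPM, 7.83-fold lower (log2 -2.97 ± 0.62, adjusted p = 0.00396). Adam8, a membrane protease of leukocytes, was at 735, 695 and 724 against 225, 312 and 233 CPM (log2 -1.48 ± 0.16, adjusted p = 1.19e-05). Mmp25 and Fgfr1 were 2.90-fold and 2.57-fold lower (adjusted p = 8.40e-05 and 4.61e-04), whereas Nrp1, a co-receptor for semaphorins and VEGF, was 2.07-fold higher (adjusted p = 7.83e-04). Spp1, which encodes osteopontin, did not pass the test, at 153, 80.0 and 145 against 106, 183 and 129.9 CPM (log2 0.15 ± 0.26, adjusted p = 0.847).

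Genes of alternative activation and arginine metabolism gave 12 of 32 tested members lower and 0 higher (2 at an unadjusted p under 0.05, 0 with DESeq2 and 0 with limma-voom), with a median of -0.67. Without AdTGFb1 954 the lower count was 7. The list shares Ccl17, Ccl22, Irf4 and Cd209a with the DC lists above. Chil3, a chitinase-like protein of macrophages with close copies, was at 488, 102 and 167 against 42.3, 56.1 and 42.5 CPM (log2 -2.43 ± 0.49, adjusted p = 0.00338), and Retnla, which encodes RELMα, at 51.9, 84.7 and 60.6 against 9.49, 25.5 and 17.6 CPM (log2 -1.91 ± 0.31, adjusted p = 4.44e-04). Arg1, the arginase gene, was at 16.3, 6.59 and 8.38 against 0, 6.87 and 0 CPM and was not called (log2 -2.28 ± 0.92, adjusted p = 0.169), though it was with no filter and without AdTGFb1 955. Aldh1a2, with which DCs make retinoic acid, was at 64.1, 97.4 and 58.1 against 11.3, 28.7 and 14.3 CPM (log2 -2.02 ± 0.31, adjusted p = 2.72e-04), and the aryl hydrocarbon receptor gene Ahr at 322, 311 and 256 against 155, 166 and 150.5 CPM (log2 -0.92 ± 0.14, adjusted p = 2.03e-04).

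Ribosomal protein genes were lower as a group: 49 of 81 tested members were called lower and 0 higher (0 at an unadjusted p under 0.05, 0 with DESeq2 and 0 with limma-voom), with a median of -0.54. In every library 71 were below and 1 above, against 12.9% and 11.5% of all tested genes. Rps24 was at 442, 563 and 602 against 309.7, 318 and 309.3 CPM (log2 -0.78 ± 0.14, adjusted p = 8.18e-04), and Rpl18 at 156, 162 and 163 against 94.5, 97.3 and 93.2 CPM (log2 -0.76 ± 0.14, adjusted p = 0.00148). Such genes have many near-identical pseudogene copies, so their counts are uncertain. The summed level of the 82 genes in the table was 27621, 31715 and 31055 CPM against 21181, 23603 and 17936 CPM. The calls depend on several libraries: without AdTGFb1 956 there were 11, without AdCL 944 23, without AdCL 949 25 and without AdTGFb1 954 29, the fit of the 6 libraries alone gave 31 and the term for other cells 29. Transcript length moved with this result. The fifth of genes with the shortest transcripts (at most 1905 bases) had a median log2 fold change of -0.17, with 5.24% of its genes lower, and the fifth with the longest 0.06, with 5.94% lower. Among 325 other genes under 1000 bases and at least 5 CPM, 33 were lower (10.2%) and 4 higher, with a median of -0.30; ribosomal protein transcripts had a median length of 1094 bases. The part of length and of RNA quality in the ribosomal result was not tested.

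**Figure D4:**
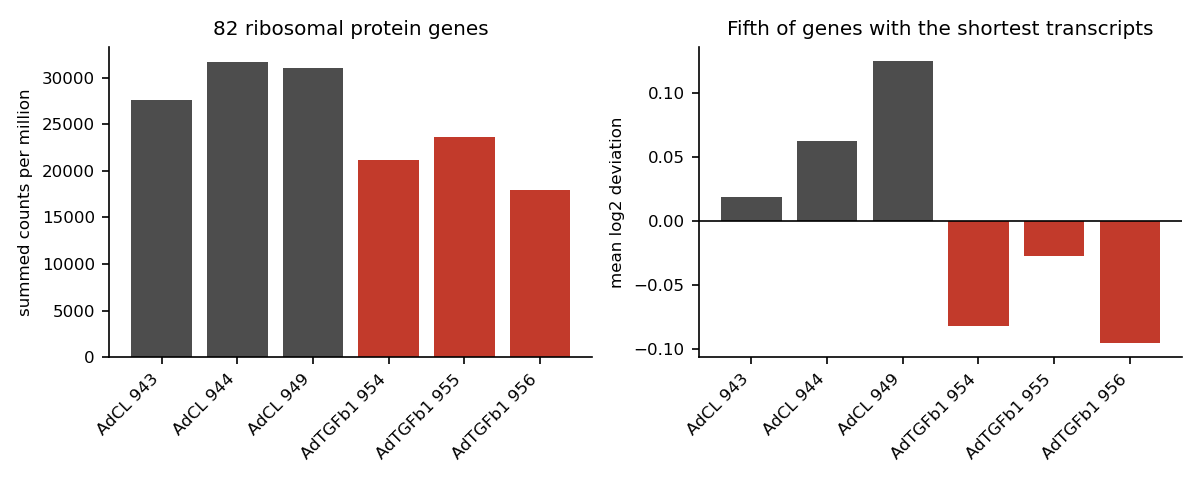
Left, summed CPM of 82 ribosomal protein genes in each library of experiment 3; right, mean over the fifth of genes with the shortest transcripts of log2(CPM + 1) minus the gene's mean over the 6 libraries. In both panels the 3 AdTGFb1 libraries (red) lie below the 3 AdCL libraries (grey), on the right at -0.0957 to -0.0279 against 0.0188 to 0.125.

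Of 78 respiratory chain subunits 4 were lower, a share of 5.13% near the 4.46% of all genes, with a median of -0.32. Without AdCL 949 or AdTGFb1 954 the count was 2 and without AdTGFb1 956 it was 1. At an unadjusted p under 0.05, 19 were lower and 0 higher, against 1430 lower and 998 higher of all 13221 tested genes. In every library 22 were below and 0 above, against 12.9% and 11.5% of all tested genes. Uqcr10, a small subunit of complex III, was at 43.0, 30.9 and 41.8 against 11.03, 18.4 and 15.8 CPM (log2 -1.35 ± 0.28, adjusted p = 0.00355). Of 28 tested S100 proteins, annexins and serpins 10 were lower and 2 higher, with a median of -0.47. Without AdTGFb1 956 the lower count was 6, and without AdTGFb1 954 neither higher member, Serpina3f or Serpina3g, was called. S100a4, an S100 protein of motile cells, was at 249.9, 203 and 271 against 92.9, 117 and 78.3 CPM (log2 -1.33 ± 0.18, adjusted p = 6.79e-05), S100a6 was 2.13-fold lower (adjusted p = 3.09e-04), and Anxa2 was at 424, 431 and 481 against 152, 236 and 158 CPM (log2 -1.29 ± 0.17, adjusted p = 5.89e-05). S100a9, a marker of neutrophils, was at 12.98, 28.4 and 14.3 against 1.54, 2.72 and 2.96 CPM (log2 -2.94 ± 0.62, adjusted p = 0.00454). The summed level of 13 neutrophil markers was 80.7, 115.5 and 91.3 CPM against 78.5, 70.0 and 87.4 CPM, with 3 called lower. Csf3r made up 65.3% of that sum on average. The 10 tested markers had a median log2 fold change of -2.95. Of these, 5 were below and 1 above in every library, against 12.9% and 11.5% of all tested genes. The part of neutrophils in the fall of S100a9 was not tested.

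Genes of metal binding and the response to oxidants gave 7 of 35 tested members lower and 0 higher (1 at an unadjusted p under 0.05, 0 with DESeq2 and 0 with limma-voom), with a median of -0.28. The metallothioneins, small metal-binding proteins, were among them. Mt1 was at 460.3, 993 and 625 against 164, 284 and 208 CPM (log2 -1.66 ± 0.23, adjusted p = 7.76e-05) and Mt2 at 196, 328 and 214 against 22.3, 91.1 and 43.1 CPM (log2 -2.24 ± 0.32, adjusted p = 1.01e-04). The redox enzyme genes Txnrd1 and Srxn1 were 2.05-fold (adjusted p = 7.64e-05) and 2.12-fold lower (adjusted p = 0.00104). These 4 calls held under all 15 alternatives. Cytosolic heat shock genes moved upward in 4 of 21 tested members, and in 2 without AdCL 943, AdCL 949, AdTGFb1 955 or AdTGFb1 956. Hspa1b, an inducible HSP70 gene with a near-identical copy in Hspa1a, was at 527, 1055 and 799 against 1083, 1809 and 1661 CPM (log2 0.93 ± 0.20, adjusted p = 0.00518), and its partner Dnajb1 was at 116, 138 and 205 against 222, 389 and 265 CPM (log2 0.93 ± 0.21, adjusted p = 0.00656).

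Of 41 cell cycle genes 4 were lower (9.76%, against 4.46% of all tested genes), with a median of -0.22, and 2 without AdCL 943, AdCL 944, AdCL 949 or AdTGFb1 956. Mki67, the gene of the proliferation marker Ki-67, was at 810.5, 811 and 683 against 419, 425 and 383 CPM (log2 -0.91 ± 0.13, adjusted p = 1.24e-04), and Top2a, a topoisomerase of dividing cells, at 137, 127 and 132 against 105, 80.2 and 82.1 CPM (log2 -0.57 ± 0.15, adjusted p = 0.0225). The call of Top2a was lost in the fit of the 6 libraries alone (0.0658) and without AdCL 943 (0.0529), 944 (0.0547) or 949 (0.0673), or AdTGFb1 955 (0.0922) or 956 (0.116). Dusp6, a feedback phosphatase of ERK, was higher at 42.9, 25.1 and 35.5 against 84.6, 82.2 and 93.6 CPM (log2 1.33 ± 0.22, adjusted p = 3.87e-04). Glycolysis and hypoxia genes were lower in 7 of 29 tested members and higher in 1, with 2 lower without AdTGFb1 956, 3 without AdCL 949 and 4 without AdTGFb1 954. Abundant genes were called lower too: Tmsb4x, the actin-binding thymosin β4, was at 3762, 4236 and 4284 against 2343, 2940.4 and 2145 CPM (log2 -0.73 ± 0.13, adjusted p = 0.00105), and the scaffold gene Ahnak at 3647, 3585 and 3473 against 1815, 2264 and 1873 CPM (log2 -0.85 ± 0.13, adjusted p = 1.55e-04).

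The remaining lists had fewer members called or moved both ways. Over all tested genes 1.97% were called higher and 4.46% lower. Of 16 MHC class II and loading genes, 4 were higher (Ciita, the protease genes Ctss and Ctsl, and March1) and 3 lower (H2-Eb2, H2-DMb2 and H2-Oa); the counts were 1 and 2 without AdCL 944, 2 and 2 without AdCL 949 or AdTGFb1 954, 2 and 3 without AdTGFb1 955, and 3 and 0 without AdTGFb1 956. Of 64 myeloid transcription factors 6 were higher and 11 lower, and of 42 integrins and adhesion molecules 3 and 10 (5 and 9 with limma-voom). Of 30 C-type lectins 1 was higher and 6 lower, Cd209a and Cd207 among the lower ones, and the lower count was 3 without AdTGFb1 956. Scavenger and dying-cell receptors gave 6 higher and 2 lower of 29, and that list holds the C1q chains, Mertk, Itgb5 and Timd4 already described. Pattern recognition receptors gave 4 higher (12.5%), the endotoxin receptor gene Tlr4 among them, and 2 lower (6.25%) of 32. The higher count of these receptors was 0 without AdTGFb1 954 and with the term for other cells, 1 without AdCL 944, AdCL 949 or AdTGFb1 956, and 7 with limma-voom. Of 28 chemoattractant receptors 4 were higher and 5 lower; the counts were 2 and 2 without AdCL 944, 4 and 3 without AdTGFb1 954, 1 and 2 without AdTGFb1 956, and 3 and 3 with the term for other cells. Of 31 TNF superfamily members 1 was higher and 5 lower, and the lower count was 2 without AdCL 944, AdTGFb1 954 or AdTGFb1 956 and 3 without AdCL 949 or with the term for other cells. Of 17 MHC class I genes edgeR called 0 higher (1 at an unadjusted p under 0.05, 0 with DESeq2 and 0 with limma-voom) and 0 lower (0 at an unadjusted p under 0.05, 0 with DESeq2 and 0 with limma-voom), with a median of 0.25. The lists of lipid handling, sterol synthesis, ribosome assembly, translation factors, the unfolded protein response, immediate early genes, clock genes and the BCL2 family each had at most 4 members called by edgeR with all libraries.

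Experiment 1 of the series made the same comparison in 6 other libraries, and 24.7% of the tested genes were called there. Most of the genes called in experiment 3 had the same sign: 216 of the 261 higher and 522 of the 589 lower genes. In both experiments 140 genes were called higher, 53.6% of those of experiment 3 and 10.0% of the 1397 of experiment 1, and 409 were called lower, 69.4% and 21.9% (of 1867). The test of the difference between the experiments called 796 genes (6.02%), of which 141 were also called in experiment 3. With the term for other cells the count of called differences was 78. In experiment 1 the value behind that term was 0.64, 1.59 and 0.79 in the AdCL libraries and -0.98, -0.67 and -1.06 in the AdTGFb1 libraries. The term thus went with the vector there and cannot tell other cells from it. Of 22 endothelial markers 17 were lower with AdTGFb1 in experiment 1, against 0 of 22 in experiment 3. Ptprb and Epas1, both abundant in endothelium, had differences of 6.49 and 3.99 (log2), and were not called in experiment 3. There Ptprb was at 17.4, 32.7 and 9.18 against 23.2, 48.1 and 15.1 CPM and Epas1 at 33.7, 68.8 and 33.0 against 35.6, 85.9 and 65.7 CPM. The Y-linked gene Ddx3y was at 200.4 to 224.9 CPM in all 3 AdCL libraries of experiment 1 and at 120.5 CPM in 1 of its AdTGFb1 libraries, and at 0 in its other 2 AdTGFb1 libraries and in all 6 libraries of experiment 3. Sex and vector thus largely coincide in experiment 1, and their parts in each difference between the experiments given here cannot be told apart. The part of other cells was not tested beyond the term for them, which cannot separate it from the vector in experiment 1.

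Several macrophage and matrix genes were lower with AdTGFb1 in experiment 3 and higher in experiment 1, and these differences kept their call with the term for other cells. Fn1 had a log2 fold change of -1.32 ± 0.32 in experiment 3 and 3.76 ± 0.35 in experiment 1 (adjusted p of the difference = 3.85e-06). Chil3 had -2.43 ± 0.49 against 4.75 ± 0.55 (1.04e-05), and Retnla -1.91 ± 0.31 against 1.08 ± 0.31 (3.08e-04). Plet1, Ccl9, a chemokine of myeloid cells, and S100a6 also had opposite called signs, with 1.29 ± 0.35, 1.32 ± 0.20 and 0.72 ± 0.17 in experiment 1 against -1.88 ± 0.36, -0.94 ± 0.20 and -1.09 ± 0.17 in experiment 3. Ccl9 was at 409, 332 and 399.7 against 140.1, 266 and 188 CPM in experiment 3 (adjusted p = 0.00436).

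A further group was lower in experiment 3 and not called in experiment 1: Adam8 (-0.03 ± 0.16 there, adjusted p of the difference = 4.90e-04), Aldh1a2 (0.41 ± 0.30, 0.00168), S100a4 (0.17 ± 0.17, 7.88e-04), Anxa2 (-0.23 ± 0.17, 0.0084), Ccl17 (-0.73 ± 0.33, 0.0132) and Cd24a (-0.19 ± 0.25, 0.0143). Cfp, the complement gene named above, was at 226, 203 and 225 against 95.8, 105 and 108 CPM in experiment 3 (log2 -1.09 ± 0.15, adjusted p = 7.31e-05) and had a log2 fold change of 0.18 ± 0.15 in experiment 1 (adjusted p of the difference = 6.72e-04). Others were higher in experiment 1 and not called in experiment 3. The chemokine gene Ccl6 was at 641, 222 and 476 against 277, 254 and 242 CPM in experiment 3 (log2 -0.80 ± 0.25, adjusted p = 0.0657; 2.42 ± 0.27 in experiment 1), with a difference that was not called with the term for other cells (adjusted p = 0.0559). In experiment 3 it was called lower with no filter, with that term and without AdCL 944. The growth factor gene Igf1 was at 105, 106 and 105 against 81.5, 109 and 110.3 CPM in experiment 3 (log2 -0.07 ± 0.18; 2.11 ± 0.19 in experiment 1). The proton pump subunit gene Atp6v0d2 was at 61.8, 26.6 and 32.0 against 30.7, 15.7 and 24.2 CPM (-0.77 ± 0.30 and 3.30 ± 0.33), and Arg1 differed by -8.60 ± 1.27 (SE). Adam8, Aldh1a2, S100a4, Anxa2, Ccl17, Cd24a, Cfp, Igf1, Atp6v0d2 and Arg1 kept a called difference with the term for other cells.

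**Figure D5:**
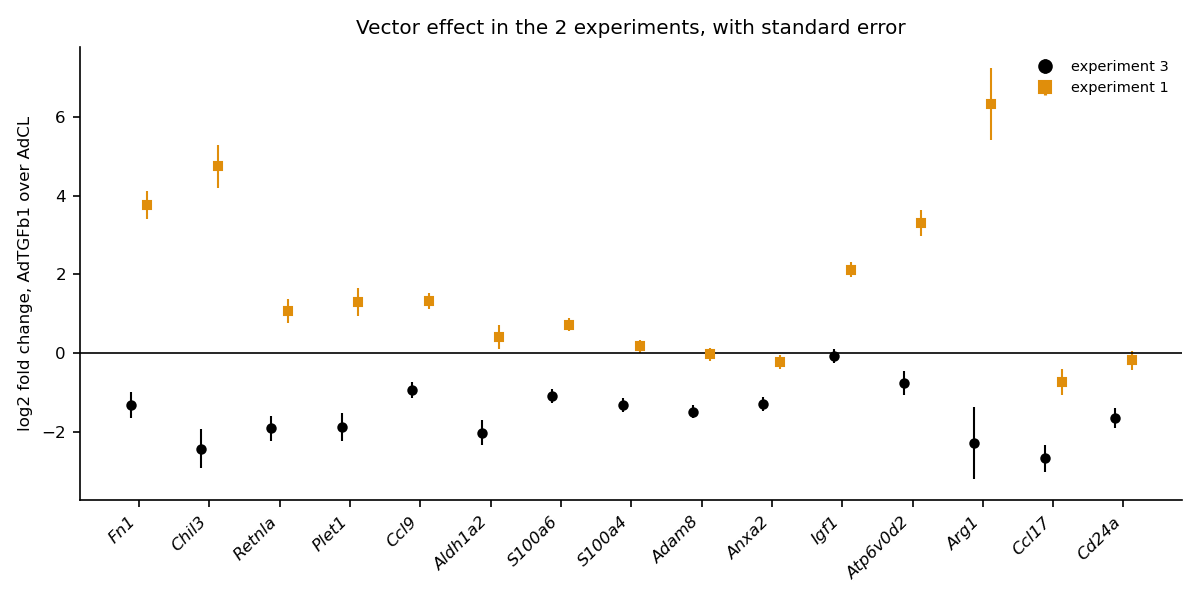
Log2 fold change of AdTGFb1 over AdCL with its approximate standard error in experiment 3 (black circles) and experiment 1 (orange squares). The 15 genes drawn all had a called difference below 0, so every black circle lies below the orange square of the same gene. Among all genes, 453 called differences were above 0 and 343 below. In experiment 3 the values drawn run from -2.67 for Ccl17 to -0.07 for Igf1.

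Counts over lists differed as well, but so did the counts over all genes. Of the 13221 genes tested, 1397 were higher and 1867 lower in experiment 1, against 261 and 589 in experiment 3. The difference was called for 6.02% of them. Of 41 cell cycle genes 24 were higher in experiment 1, with a median of 1.21, against 0 in experiment 3, and the difference was called for 18. For the 78 respiratory chain subunits the counts were 21 higher against 0, with 17 called differences, and for the 23 alveolar macrophage genes 11 higher against 0, with 9. The alveolar macrophage genes had 2 members lower in experiment 3, Chil3 and Plet1, and a median of -0.84. Of the ribosomal protein genes 46 were lower in experiment 1 as well, with a median of -0.45. In the interferon-γ list 14 were higher in experiment 1, and the difference was called for 1, Iigp1, at 2.61 ± 0.52 against 0.11 ± 0.49 (adjusted p of the difference = 0.0389, and 0.441 with the term for other cells). For the migratory DC list 6 of 30 members had a called difference, Tnfrsf9 and Ccl17 among them, and for the 28 NF-kB genes 6.

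Markers of cells other than DCs and monocyte-derived cells summed to at most 534.4 CPM per list in any of the 6 libraries. That highest sum was of the mesenchymal and mesothelial list, in which Gsn made up 83.0% on average. Of all these genes 7 were called: 3 of 10 tested neutrophil, 2 of 9 platelet, 1 of 17 T and NK and 1 of 17 mesenchymal markers. Over all tested genes 6.43% were called. The 1 tested erythroid marker was not called, though its unadjusted p was under 0.05. The summed level of 22 endothelial markers was 199.2, 311.3 and 168.2 CPM with AdCL and 259.8, 386.5 and 267.6 CPM with AdTGFb1, and each was detected; edgeR called 0 (3 higher and 1 lower at an unadjusted p under 0.05). The 21 epithelial markers summed to 143.6, 211.2 and 159.5 against 114.9, 178.2 and 130.9 CPM, with 0 called (1 lower at an unadjusted p under 0.05) and 1 at 0 in all 6 libraries. The 12 platelet markers summed to 58.9, 87.8 and 70.3 against 34.4, 41.0 and 42.4 CPM, without overlap and with 2 called lower. The 22 T and NK cell markers summed to 105.1, 125.3 and 112.0 against 135.0, 106.1 and 98.2 CPM, with 1 called lower. The 17 tested ones had a median log2 fold change of -1.39, with 4 below and 2 above in every library. On average Cd4 made up 52.4% of the T and NK sum and Pf4 59.8% of the platelet sum. The 12 B and plasma cell markers stayed at 3.87 to 12.14 CPM and the 14 eosinophil, basophil and mast cell markers at 7.55 to 18.32 CPM; 9 of those 14 were at 0 in every library. The 10 plasmacytoid DC markers were at 136.4 to 184.4 CPM over the 6 libraries, and Tcf4 made up 58.5% of that sum on average. Siglecf made up 80.3% of the eosinophil, basophil and mast cell sum and Cd79b 50.7% of the B and plasma cell sum. None of the B, plasma, eosinophil, basophil, mast cell and plasmacytoid DC markers was called by edgeR, and 0 had an unadjusted p under 0.05.

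Of the genes chosen for naming by rule, 16 share exon sequence with another tested gene in GENCODE. Whether the counting used the strand is not given in the sources used here, so their values may include reads of the partner. Overlap with genes that were not tested was not searched. Nor was overlap searched for the genes named after their values were seen. Among the genes above these are Csf1r, Ciita, Il16, Stat5a, Il1b, Nrp1, Plet1, Rpl18 and Ifi47.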

How the data were processed

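Poly(A) RNA of the cells was sequenced with a stranded library kit, per the labels' protocols. The table deposited by the authors holds whole-number counts per gene symbol, not normalized. The submitters' processing notes list STAR 2.5.0c, HTSeq and DESeq2, build mm9, cutadapt 1.9.1 and Trim Galore 0.4.1 with FastQC 0.11.4, with no roles; no source used here gives the counting mode. Counts were fitted with edgeR 4.0.16 in R 4.3.3 (TMM scaling, filterByExpr, quasi-likelihood F-test) as 4 groups over all 12 libraries, which share 1 estimate of spread with 8 residual degrees of freedom; log2 CPM values used a prior count of 2. The vector effect in experiment 3 and its difference from that in experiment 1 were contrasts of this fit, adjusted over 13221 genes by Benjamini-Hochberg. The script was tested on simulated data with 200 changed genes. There edgeR recovered 35% of the 2-fold and 60% of the 4-fold changes, and 6.86% of its calls were false. DESeq2 recovered 40% and 64%, with 21.8% of its calls false, and limma-voom 33% and 56%, with 6.32% false. A gene that was not called may therefore still have changed. The 15 alternatives were the 6 libraries alone, RLE and upper-quartile scaling, DESeq2 1.42.0, limma-voom (limma 3.58.1), no filter, a mean of at least 5 CPM, leaving out Rn45s and Malat1, a term for other cells, and each library left out. Genes were named by rule: in each direction the 12 largest changes at 5 CPM or more, the 8 smallest adjusted p-values and the 6 most abundant calls, up to 4 called members per list, the 6 smallest p-values of the difference in each direction, and a list of DC, TGF-β and macrophage genes whatever their result. The genes and lists were chosen with earlier results of these data known. Promoters are from RefSeq (GRCm38.p6), 10428 of the tested genes matched by symbol; transcript lengths and exon overlaps are from GENCODE. Some genes are not reported here by name; they stay in the counts and medians of their lists.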

Additional observations from a re-analysis of the deposited data

Results flagged for a closer look

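For 43 genes given in the text, the effect of AdTGFb1 in experiment 3 differed from that in experiment 1 in a test of the difference itself (edgeR's quasi-likelihood test, adjusted p under 0.05). The values below are the log2 effect in experiment 3 minus that in experiment 1.

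The effect was less positive or more negative in experiment 3 for macrophage and matrix genes: -5.08 for Fn1, -7.17 for Chil3, -8.60 for Arg1, -2.99 for Retnla, -3.18 for Plet1, -4.07 for Atp6v0d2, -3.21 for Ccl6, -2.27 for Ccl9, -2.18 for Igf1, -2.14 for Spp1, -3.22 for Timp1 and -0.86 for Tgfbi. It was so for Rnase2a at -7.46, Adam8 at -1.45, Aldh1a2 at -2.43, Ccl17 at -1.95, Tnfrsf9 at -2.76 and Cd24a at -1.47. Phagocyte genes with rises in experiment 3 had larger rises in experiment 1: the difference was -0.90 for Ccr2, -0.88 for C1qc, -0.84 for Ctsc and -0.93 for Gusb. Cfp had -1.27. Short, cytoskeletal and dividing-cell genes had -1.50 (S100a4), -1.81 (S100a6), -1.07 (Anxa2), -1.01 (Tmsb10), -0.80 (Tagln2), -2.08 (Uqcr10), -1.10 (Mki67) and -1.64 (Top2a).

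The effect was more positive in experiment 3 for genes abundant in endothelium or mesenchyme, 6.49 for Ptprb, 3.99 for Epas1, 3.17 for Eln and 3.95 for Col3a1. It was also more positive for Iigp1 at 2.5, Hes1 at 2.77, Ctla2b at 2.61, Il16 at 2.13, Cd207 at 2.77, S100a9 at 3.17, Hspa1b at 1.35 and Dnajb1 at 1.10.

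The term for markers of other cells went with the vector in experiment 1 and cannot tell other cells from the vector there. Of the 63 genes chosen for naming that had a called difference, 21 kept it with that term. Among the genes above, these were Adam8, Aldh1a2, Anxa2, Arg1, Atp6v0d2, Ccl17, Ccl9, Cd24a, Cfp, Chil3, Fn1, Igf1, Plet1, Ptprb, Retnla, S100a4 and S100a6. For the others the adjusted p with that term ran from 0.05248 for Top2a to 0.8026 for Tgfbi.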

How the results depend on the processing

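Among the 172 genes chosen for naming that were called, 115 kept direction and call under all 15 alternatives and 57 lost the call under at least 1; none changed sign. Of those not called, 6 were called under at least 1 alternative (Tgfbr3, Arg1, Ccl6, Atp6v0d2, Epas1 and Tjp1). The count of higher genes was 432 with DESeq2, 392 with no filter on low counts and 149 to 244 when single libraries were left out; at least 2-fold higher it was 188 with DESeq2 and 71 to 115. Lower genes ranged from 349 to 596. Called differences between the experiments numbered 1303 with DESeq2, 1222 with no filter and 78 with the term for other cells. Higher genes made up 30.7% of calls, and 37.8% with the 6 libraries alone. List medians moved beyond the replicate spread in 28 of 645 cases. With the term for other cells these were interleukins (-0.38), CD103 DC genes (0.0377), matrix genes (0.0782), MHC class I (-0.0014) and the TNF superfamily (0.0168). For CD103 DC genes limma-voom gave 0.26 and a minimum of 5 CPM 0.0524, which gave -0.55 for alveolar macrophage genes; for interleukins DESeq2 gave -0.41 and no filter -0.42. Leaving out single libraries gave -0.0515 to 0.0431 for the BCL2 family, 0.0843 to 0.82 for CD103 DC genes, -0.74 to -0.36 for DC identity, -0.77 to -0.24 for interleukins, -0.0094 to 0.40 for MHC class I, -0.56 to -0.24 for S100 proteins, annexins and serpins, -0.023 to 0.20 for scavenger receptors, -0.31 to -0.15 for sterol synthesis and -0.19 to -0.008 for the TNF superfamily. The causes were not tested. No paired analysis was possible because the groups share no replicate number. With 3 libraries a group, effects of low-count genes carry wide errors, as Tgfbr3 and Arg1 show.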

Other observations

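A further 3 abundant genes called lower with AdTGFb1 were chosen after their values were seen. Actg1, cytoplasmic γ-actin, was at 1503, 2293 and 1824 CPM with AdCL and 923, 1279 and 844 CPM with AdTGFb1 (log2 -0.88 ± 0.16, adjusted p = 0.00112). Tmsb10, a thymosin that binds actin monomers, was at 261, 292 and 302.8 against 192, 172 and 157 CPM (adjusted p = 0.00439) and Tagln2, transgelin-2, at 356, 405 and 415 against 291, 242 and 198 CPM (adjusted p = 0.00528). All 3 kept their call under the 15 alternatives, and their libraries did not overlap between the groups.

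Also chosen after their values were seen are 2 genes known from microglia, the macrophages of the brain. Tmem119 was at 16.0, 22.6 and 25.2 against 47.2, 86.8 and 67.5 CPM (log2 1.66 ± 0.29, adjusted p = 7.98e-04), and Olfml3 was at 29.0, 17.3 and 42.6 against 80.0, 109 and 116 CPM (log2 1.77 ± 0.34, adjusted p = 0.00215). Both were higher in every AdTGFb1 library and kept their call under the 15 alternatives.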
